A study of Arabidopsis thaliana with 35 samples.

Results

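These 211 regions of the Arabidopsis thaliana genome carried the histone mark H3K27me3 in seedlings that had returned from a long cold period, over at least 50% of their length in both libraries, and under 50% in both libraries of seedlings that had never been in the cold. They were chosen from 8720 regions, which were made by joining all overlapping or adjacent H3K27me3 peaks of 6 libraries on chromosomes 1 to 5, and made up 2.42% of them. The coverage after the return and without cold chose the regions, so those values are given as a description and carry no test. The reverse rule, coverage in both libraries without cold and in neither after the return, found 11 regions (0.126%).

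H3K27me3 is the trimethylation of lysine 27 of histone H3. It is placed by Polycomb repressive complex 2 and is found over genes that are kept silent, often along the whole gene body. Vernalization is the promotion of flowering by a long cold period, and its best known target is FLC, a MADS-box repressor of flowering on which H3K27me3 builds up in the cold and spreads once warmth returns. H3K4me3 lies at the starts of transcribed genes and H3K36me3 along transcribed gene bodies.

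All groups were seedlings of the ecotype Col-0 carrying a functional FRI allele, an activator of FLC, with 22 °C and long days of 16 h of light and 8 h of dark as standard growth. NV is the group with normal growth only, 40 d is the group at the end of 40 d of cold, and T10 is the group given 40 d of cold and then 10 d of normal growth. The 3 marks were mapped in these 3 groups by chromatin immunoprecipitation and sequencing (ChIP-seq), with 2 libraries per mark and group. RNA was sequenced in the same groups and in seedlings after 1 h, 1 d, 10 d or 20 d in the cold, again with 2 libraries per group. NV is the only group without cold, so cold, age and development cannot be told apart in any difference from it. Nothing states that the libraries of a group came from separate cultures, so p-values measure the spread between these libraries, which may be technical. In whole seedlings, a mark in fewer cells and less of it per cell cannot be told apart, and the same holds for RNA.

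Depth differed between the groups. The H3K27me3 libraries held 6.01 and 3.42 M filtered tags at NV (M, 1e+06; replicates 1 and 2), 15.64 and 3.86 M at 40 d, and 12.14 and 6.6 M at T10. Their peaks covered 12.11 and 8.21 Mb at NV, 17.44 and 10.28 Mb at 40 d, and 16.57 and 9.27 Mb at T10. Within a replicate number the T10 library was thus both deeper and more widely covered than the NV library. By replicate 1 alone 2382 regions met the rule and 215 its reverse, and by replicate 2 alone 928 and 338. Comparing T10 replicate 2 with NV replicate 1, which held similar numbers of tags, 469 regions met the rule and 1933 its reverse, but this comparison sets a library of replicate 2 against one of replicate 1. The part of depth in the choice of these regions was not tested. RNA libraries held 2.38 M (T10, shallower) to 19.89 M reads (40 d, deeper). Of the listed photosynthesis genes 7 of 7 were in the RNA table, and of the root genes 10 of 11, whereas 1 of 11 floral organ MADS-box genes and 1 of 7 seed and embryo genes were listed.

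The regions were short. Their median length was 1437 bp (685 to 7216 bp), against 2552 bp for the 2018 regions covered in all 6 libraries and 1658 bp for all regions, and together they spanned 369.9 kb. Median coverage was 88.6% and 66.3% in the T10 libraries (replicates 1 and 2), and 0% in both NV libraries, where the highest value was 49.9%. No peak of either NV library touched 117 of the regions, while 36 held a peak in 1 NV library and 58 in both. In those 58 regions the rule thus picked a mark that already lay over part of the region. The authors' fold enrichment of the highest peak, used only to describe these peak lists, had a median of 2.6 and 2.19 at T10 over the gaining regions, and of 5.13 and 3.66 over the regions covered in all 6 libraries.

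**Figure D1:**
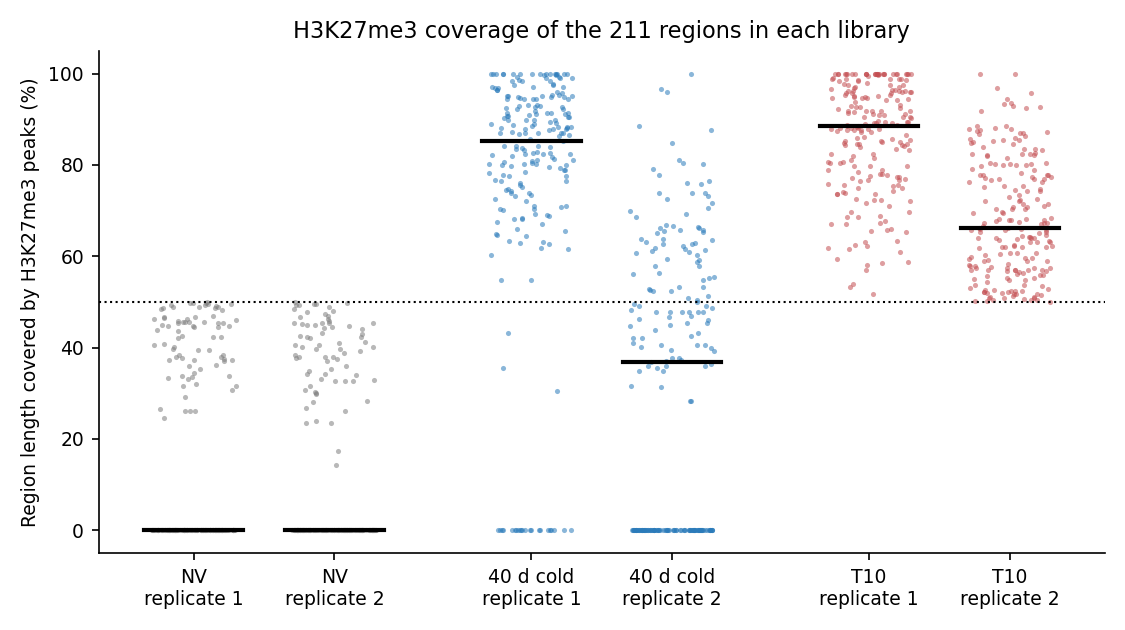
Share of each region's length covered by H3K27me3 peaks (percent, vertical axis) in each of the 6 libraries, for the 211 gaining regions; each point is 1 region, bars are medians and the dotted line is the 50% limit of the rule. NV and T10 lie on either side of the line because the rule put them there, whereas 40 d was free: its medians were 85.2% in replicate 1 and 36.8% in replicate 2, and many regions had no peak in replicate 2.

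Many regions lay close to the limit. In 39 of them the lower T10 value was between 50% and 55%, in 42 the higher NV value was between 45% and 50%, and 67 met one of these conditions. Another 61 regions missed the rule by up to 5 points at T10 and 78 by up to 5 points at NV. The region of OSM34, which encodes an osmotin-like protein, lay just inside (96.4% and 50.1% at T10, against 44.6% and 48.1% at NV), as did that of 4CL3 (76.5% and 50.2% at T10, against 0% in both at NV). The region of AT5G54400 lay just outside (96.1% and 49.9% at T10, against 38.4% and 49.7% at NV), and so did that of PYL11, an abscisic acid receptor gene, on the NV side (94.8% and 57.2% at T10, against 50% and 45.1% at NV). FLC itself was also just outside: its merged region, chr5:3173723-3180126 (6404 bp, TAIR10), was covered to 96.2% and 48.1% at T10, against 0% in both libraries at NV. That region also overlaps AT5G01675. The FLC gene alone was covered to 94.4% and 50.6% at T10, against 0% in both libraries at NV. Over the gene FLC thus met the limits of the rule, which was applied to merged regions. None of the 144 genes of the vernalization, Polycomb, flowering, cold, clock and other lists lay in a gaining region. Of those genes, 39 lay in regions covered in all 6 libraries, 47 in other merged regions and 58 in none. By the gene link given below, the gaining regions held 146 of the 27432 nuclear protein-coding genes. At that share, finding none of 144 genes is no sign that the lists were avoided.

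The 10 longest gaining regions show what the rule found. The longest, chr4:1586459-1593674 (7216 bp), holds the protein-coding genes AT4G03565, AT4G03566 and AT4G03570, and was covered to 95.8% and 74.2% at T10, against 34.5% and 30% at NV. The second, chr1:10924155-10931062 (6908 bp), spans AT1G30780 and 3 neighbouring genes. The third, chr5:16656576-16662043 (5468 bp), holds AT5G41660 and MIR319b, a precursor of the microRNA miR319 that targets TCP transcription factor transcripts; it was covered to 100% and 51.6% at T10, against 36% and 40.5% at NV. Next came the regions of AT1G47980 (4817 bp) and of UMAMIT20 (4772 bp), a gene of a family of amino acid transporters, both with peaks in both NV libraries. AT3G26250, the glucosyltransferase gene UGT85A7, the nicotinamidase gene NIC3, AT3G46710 and AT1G44740 completed the 10, at 4164 to 3668 bp. None of these 10 regions was free of peaks in both NV libraries, although 117 of the 211 were.

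At the end of the cold, 186 of the 211 regions (88.2%) were covered to at least 50% in replicate 1 and 68 (32.2%) in replicate 2. Over all regions these shares were 84.3% and 42.5%. The rule set no limit at 40 d, although the 40 d peaks took part in drawing the regions. Both 40 d libraries covered 64 regions (30.3%), 1 of them covered 126 (122 of these by replicate 1), and neither covered 21 (9.95%). Among the 3470 other regions under 50% in both NV libraries, both 40 d libraries covered 62 (1.79%). By the rule these lacked coverage in at least 1 T10 library, whereas the gaining regions had it in both. The 30.3% and the 1.79% are thus not a like comparison. The share over all regions was 33.4%, which includes the regions covered everywhere. As these libraries held 15.64 and 3.86 M tags, the 126 regions covered in 1 library cannot be divided into marked and unmarked ones. Replicate 1 alone gave 1980 of 2382 regions covered at 40 d, and replicate 2 alone 488 of 928. By the rule applied to 40 d, 126 of all regions gained (1.44%) and 11 lost (0.126%) the mark against NV.

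The longest regions covered in both 40 d libraries were those of AT1G47980, AT3G26250, AT3G46710, OSM34 and RGF4. AT3G46710, at chr3:17205493-17209209, was covered to 84.2% and 70.5% at 40 d, against 0% and 26.1% at NV. RGF4, a gene for a peptide of the root meristem growth factor family, was covered to 91.2% and 52.5% at 40 d, against 49.7% and 44.9% at NV. The choice of these regions by their 40 d coverage, with NV under 50%, put all 40 d values above all NV values. In RGF4 the margin was small.

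Of the 21 regions covered in neither 40 d library, 17 had no 40 d peak at all. Over all regions, 30 (0.344%) were covered in both T10 libraries and neither 40 d library, and 6 (0.0688%) the reverse, which none of the gaining regions could be. NIC3 at chr5:7818378-7822174 headed them by length, with 89.7% and 60.8% at T10, against 43.1% and 39.5% at 40 d. It was followed by a region with no gene at chr1:25640069-25642080, the region of AT2G22590, the region of CYP86A7, a cytochrome P450 of the fatty acid omega-hydroxylase family, and the pseudogene AT5G14840. CYP86A7 had no H3K27me3 peak at NV or at 40 d, and its T10 coverage was 94.2% and 86.4%. The nitrate reductase gene NIA1, the cation/H+ exchanger gene CHX17, OFP1 of the OVATE family, AT5G12940 and AT5G42280 also had no H3K27me3 peak before T10.

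By gene content the gaining regions were nearer to all regions than to those covered throughout. Protein-coding genes were linked to 139 regions (65.9%), against 93.3% of the regions covered in all 6 libraries and 66.7% of all regions. Here a gene is linked when the region covers at least 50% of it or lies to at least 50% inside it. Only pseudogenes were linked to 25 regions (11.8%), against 3.42% and 8.67%, only non-coding RNA genes to 10 (4.74%), against 1.09% and 3.39%, and no gene to 37 (17.5%), against 2.23% and 21.2%. Of the 146 linked protein-coding genes, 51 (34.9%) lay whole inside their region, against 67.1% of the 2496 genes of the regions covered in all 6 libraries, and 29 (19.9%) were covered by less than 50%, against 3.81%. The gaining regions were also shorter, with a median of 1437 bp against 2552 bp, and the part of length in these shares was not tested.

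**Figure D2:**
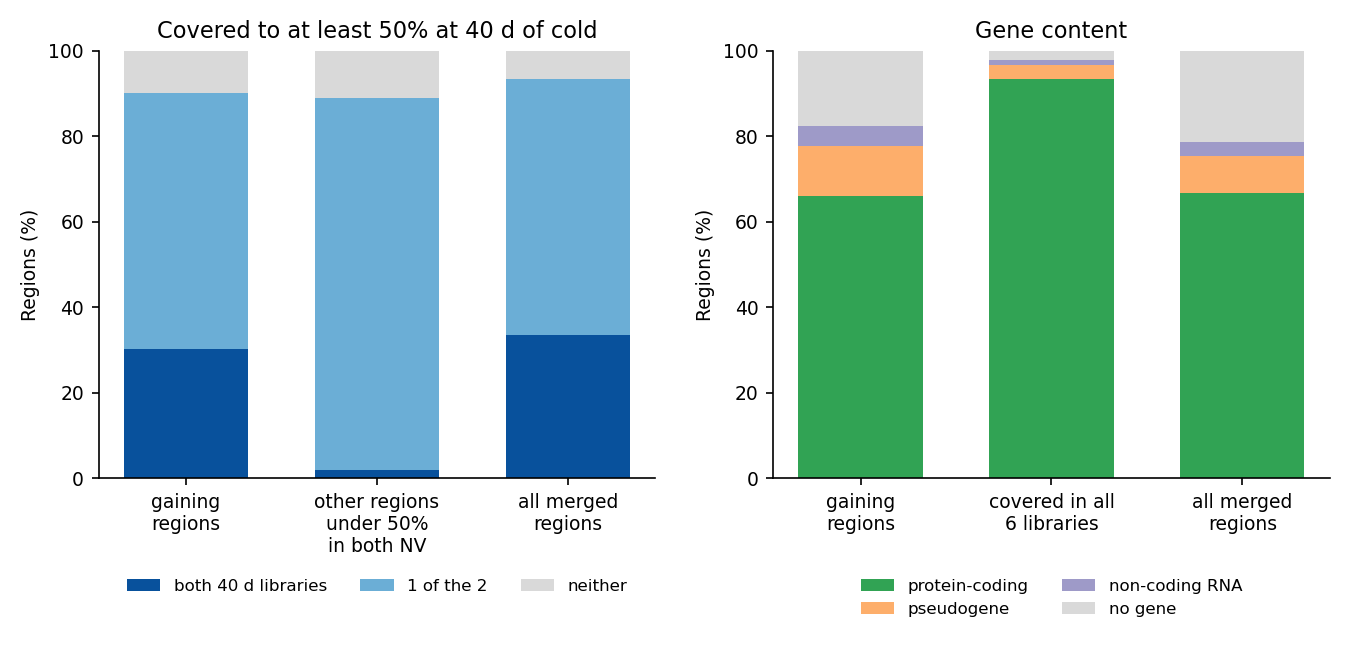
Left, percent of regions covered to at least 50% by H3K27me3 peaks in both, 1 or neither of the 40 d libraries; right, percent of regions linked to a protein-coding gene, only to a pseudogene, only to a non-coding RNA gene, or to no gene. Coverage in both 40 d libraries was 30.3% for the gaining regions, 1.79% for the other regions under 50% in both NV libraries and 33.4% over all regions. Only the gaining regions were chosen for coverage in both T10 libraries, so the 30.3% and the 1.79% are not a like comparison. A protein-coding gene was linked to 65.9% of the gaining regions, against 93.3% of the regions covered in all 6 libraries.

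The gaining regions were spread over the genome. Chromosomes 1 to 5 held 57, 33, 48, 26 and 47 of them, and the surrounding 100 kb held a median of 24 protein-coding genes, against 25 for all regions. The nearest region covered in all 6 libraries was within 5 kb for 75 of them (35.5%), against 35.6% among those regions themselves, 22.7% for the other regions under 50% in both NV libraries and 27.7% for all regions. Neighbouring gaining regions were a median of 280899 bp apart, and 6 neighbouring pairs were within 10 kb, among them AGL59 beside the pseudogene AT1G28465, PHE1 beside AT1G65342, and AT3G28520 beside AT3G28540.

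The linked genes belong to many families, which were looked at after the members were seen. Cytochrome P450 genes were linked to 6 regions (2.84%): CYP705A30, CYP71B38, CYP79A2, which acts in benzylglucosinolate synthesis, CYP81D11, CYP86A7 and ROT3, which acts in brassinosteroid synthesis. That share was 2.92% among the regions covered in all 6 libraries and 1.47% among all regions. AGAMOUS-like MADS-box genes were linked to 3 regions (1.42%, against 1.04% and 0.722%): AGL59, AGL92 and PHE1, an imprinted gene of the endosperm. MicroRNA genes lay in 3 regions (1.42%, against 0.942% and 1.2%), namely MIR319b, the pair MIR5649a and MIR5649b, and MIR8184. Other named genes were the transcription factors NAC019, ZFHD1, bZIP44, MYB12 and RSL1, a regulator of root hairs, the sucrose transporter gene SUT4, TED6, known from xylem cell wall formation, the callose synthase gene GSL04 and the extensin gene EXT13.

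The active mark H3K4me3 was present in a minority of the regions at every time and changed in few. A region was taken to hold a mark in a library where peaks overlapped it by at least 200 bp. Both libraries had H3K4me3 in 42 gaining regions at NV, 40 at 40 d and 48 at T10, that is 19.9%, 19.0% and 22.7%, close to the 18.5%, 18.1% and 22.6% of all regions. Both libraries had H3K36me3 in 6 regions at NV, 6 at 40 d and 8 at T10, against 3.03%, 2.48% and 3.0% of all regions. A gain means both libraries of the later group and neither of the earlier, and a loss the reverse. Between T10 and NV, H3K4me3 was gained in 1 region, AT3G28540, against 0.86% of all regions, and lost in 1, NIA1, against 0.195%. H3K36me3 was gained in 1, FUT4, against 0.252%, and lost in none, against 0.138%. The rule for H3K27me3 and the call for loss of H3K4me3 thus met in 1 of 211 regions. These few calls depend on asking for both libraries: by replicate 1 alone H3K4me3 was gained in 5 and lost in 3 of the regions and H3K36me3 was gained in 2, and by replicate 2 alone H3K4me3 was gained in 8 and lost in 2.

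**Figure D3:**
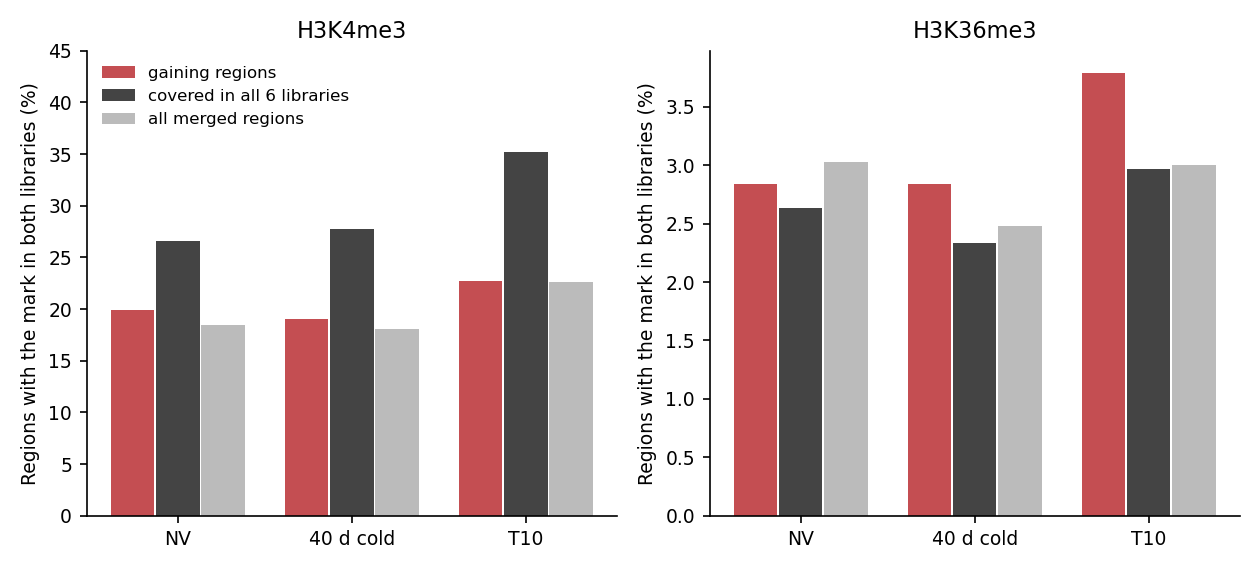
Percent of regions with H3K4me3 (left) or H3K36me3 (right) in both libraries at NV, 40 d of cold and T10, for the gaining regions, the regions covered in all 6 H3K27me3 libraries and all merged regions; the vertical axes differ in scale. For H3K4me3 the gaining regions stood at 19.9%, 19.0% and 22.7%, beside 18.5%, 18.1% and 22.6% over all regions.

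NIA1 encodes nitrate reductase, the first enzyme of nitrate assimilation, and its region, chr1:29235970-29237334 (1365 bp), covers 36.3% of the gene. H3K4me3 covered 71.1% and 63.5% of it at NV and 0% in both libraries at 40 d and at T10. H3K27me3 covered 0% in both libraries at NV and at 40 d, and 75.8% and 71.5% at T10. Thus at 40 d no peak of H3K4me3 or of H3K27me3 was called in this region, and the rest of the gene is not covered by these values. The highest H3K27me3 peaks at T10 had a fold enrichment of 1.6 and 2.05, against medians of 2.6 and 2.19 over the gaining regions. NIA1 RNA was at 40.5 and 40.2 normalised read counts at T10 (the deeper and the shallower library, scaled for library size and not for gene length), against 44.4 and 80.6 at NV. That difference did not pass the test (fitted log2 change -0.57, SE 0.32, adjusted p 0.212 by limma). Against 40 d, where it stood at 90.7 and 86.8, NIA1 fell at T10 by 1.13 on the log2 scale (SE 0.32, adjusted p 0.0227), a call lost without any 1 of the 4 libraries (0.0693 to 0.158).

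AT3G28540 went the other way. Its region, chr3:10694430-10695744, gained H3K4me3, with 83.3% and 90.8% at T10, against 0% in both libraries at NV, and also met the rule for H3K27me3, with 69.7% and 73.0% at T10, against 0% in both at NV. FUT4, a fucosyltransferase gene of arabinogalactan proteins, had H3K36me3 over 58.4% and 58.8% of its region at T10, against 0% in both at NV, beside H3K27me3 over 75.3% and 62.1%, against 0% in both. Both regions held an active mark and H3K27me3 at T10, and whether the marks lay in the same seedlings or cells cannot be told. Their H3K27me3 peaks at T10 were weak. The highest had a fold enrichment of 1.65 and 2.02 for AT3G28540 and 1.68 and 1.85 for FUT4 (replicates 1 and 2). The medians over the gaining regions were 2.6 and 2.19.

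Some regions held the active marks at every time. The region of SUT4, chr1:3244281-3245233, was covered to 100% by both H3K4me3 and H3K36me3 in all libraries of these marks, and H3K27me3 covered 92.8% and 64.3% at T10, against 0% in both at NV. AT5G11230 and AT5G42280 also held both active marks at NV, 40 d and T10. The 42 regions with H3K4me3 in both NV libraries were linked to 37 protein-coding genes, of which 22 (59.5%) were listed in the RNA table. Of the 97 genes linked to the 158 regions with H3K4me3 in neither NV library, 24 (24.7%) were listed.

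At the end of the cold H3K4me3 had been lost against NV in 2 regions, NIA1 and AT4G24340, against 1.32% of all regions, and gained in none, against 0.757%. Between T10 and 40 d it was gained in 5, against 2.17%, and lost in none, against 0.585%. H3K36me3 was gained and lost in none at 40 d against NV, against 0.0459% and 0.264% of all regions. It was gained in 1 region, FUT4, at T10 against 40 d, against 0.401%, and lost in none, against 0.0459%. The 5 gains of H3K4me3 were AT1G30780, CYP86A7, AT3G28540, AT4G24340 and AT4G29270. AT4G29270, at chr4:14424261-14425225, had H3K4me3 over 73.6% and 70.1% at T10, against 0% in both at 40 d. CYP86A7 had 48.7% and 42.1% at T10, against 0% in both at 40 d. The 5 gains are near the share over all regions, and H3K27me3 covered at least 50% of these regions at T10 by the rule. H3K4me3 covered only 9.7% and 8.9% of the region of AT1G30780 at T10, and 10.7% and 8.9% of that of AT4G24340. In these regions the peaks of the marks thus need not overlap. By replicate 1 alone the losses at 40 d against NV numbered 10 and the gains 1, and the gains at T10 against 40 d 12 and the losses 1. By replicate 2 alone these were 4 and 4, and 8 and 2.

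RNA could be read for a minority of the genes. Of the 146 linked protein-coding genes, 50 (34.2%) were listed in the deposited RNA table and all 50 were tested, against 29.5% of the genes of regions covered in all 6 libraries and 66.3% of all nuclear protein-coding genes. The genes that were not listed have no value here. Of the 50, 6 overlap another annotated gene (AT2G16580, AT5G42280, CYP81D11, ROT3, TPS12 and ZFHD1), and whether reads were counted by strand is not given in the sources used here.

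At T10 against NV, 6 of the 50 genes rose and 9 fell (limma, Benjamini-Hochberg adjusted p under 0.05). That is 12.0% and 18.0%, against 13.7% higher and 10.7% lower among the 18766 genes tested, and 10.2% and 22.0% among the 737 tested genes of regions covered in all 6 libraries. The median fitted log2 change of the 50 was -0.49, with 34 of 50 below 0, against -0.03 over all genes tested and -0.72 over the genes of regions covered in all 6 libraries. The share of rises was thus near that of all genes tested. The share of falls lay between that of all genes and that of the genes of regions covered in all 6 libraries. At T10 the listed root genes had fallen too, 5 of 10 tested with none higher, and their summed level was 19.5 at T10 against 52.6 at NV; their part in the falls was not tested. Without the deeper T10 library 2 rises and no falls were called, and without the shallower one 5 falls.

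The rises were led by MYB12, an activator of flavonol synthesis. MYB12 stood at 4.12 and 5.55 normalised read counts at T10, against 0.733 and 1.12 at NV, a log2 change of 2.29 (SE 0.37, adjusted p 0.001). Its region was covered by H3K27me3 to 99.9% and 51.3% at T10, against 45.5% and 49.6% at NV. OSM34 stood at 22.4 and 19.8 at T10, against 8.3 and 3.47 at NV (1.96, SE 0.42, adjusted p 0.00562). The terpene synthase gene TPS12 stood at 3.3 and 5.72 at T10, against 0.591 and 2.09 at NV (1.81, SE 0.59, adjusted p 0.0415). In these 3 genes both T10 libraries were above both NV libraries, but the groups did not overlap in any of the 15 called genes. The regions of these 3 genes were already partly covered in at least 1 NV library.

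CYP81D11, a cytochrome P450 gene known to respond to xenobiotics and jasmonate, stood at 98.1 and 94.9 at T10, against 27.4 and 30.2 at NV (1.75, SE 0.29, adjusted p 0.00134). Its region had no NV peak of H3K27me3 and was covered to 100% and 65.8% at T10. CHX17 stood at 13.1 and 11.1 at T10, against 4.89 and 3.88 at NV (1.52, SE 0.24, adjusted p 0.000988). AT4G29270 stood at 8.64 and 9.36 at T10, against 5.77 and 4.7 at NV (0.75, SE 0.23, adjusted p 0.0303). Without the deeper T10 library the calls of MYB12 and CYP81D11 remained and the other 4 rises lost theirs, at adjusted p 0.0539 (CHX17) to 0.204 (AT4G29270). TPS12 also lost its call without the shallower T10 library (0.103) or the deeper NV library (0.32), and AT4G29270 without the shallower T10 (0.067) or shallower NV library (0.0927).

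Of the falls, AT5G38100 had no read in either T10 library, against 0.52 and 0.411 normalised read counts at NV. Set against a floor of 3 reads over the group it was at least 5.91-fold lower at T10 (adjusted p 0.0203). SULTR3;5, a gene of the sulfate transporter family, stood at 0.251 and 0 at T10, against 1.61 and 2.59 at NV (log2 change -3.42, SE 1.09, adjusted p 0.038). XTH21, a xyloglucan endotransglucosylase/hydrolase gene of the cell wall, stood at 0.126 and 0 at T10, against 1.09 and 0.823 at NV (-3.03, SE 0.8, adjusted p 0.0161). These are genes with few reads. Their T10 and NV values did not overlap, but this held for all 15 called genes and adds nothing to the calls.

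NIC3 stood at 0.189 and 0.347 at T10, against 2.84 and 1.18 at NV (-2.96, SE 0.83, adjusted p 0.0226). AT5G12940 stood at 1.45 and 1.73 at T10, against 10.6 and 7.9 at NV (-2.6, SE 0.33, adjusted p 0.000242). AT5G60760 stood at 0.346 and 0.347 at T10, against 2.29 and 2.06 at NV (-2.54, SE 0.49, adjusted p 0.00321). CYP705A30 fell by 1.87 on the log2 scale (SE 0.41), AT5G59940 by 1.38 (SE 0.46) and AT5G11230 by 1.26 (SE 0.26). AT5G12940 fell while its region kept H3K4me3, at 98.6% and 94.4% at T10, against 98.8% and 92.8% at NV.

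All 9 falls lost their calls when the deeper T10 library was left out, at adjusted p 0.062 (AT5G12940) to 0.62 (AT5G59940). This left 1 T10 library of 2.38 M reads, which the fit assumes to vary like the other groups. Without the shallower T10 library XTH21, SULTR3;5, NIC3 and AT5G59940 lost theirs, at 0.0546 to 0.0921. Without the deeper NV library NIC3 (0.0529), AT5G38100 (0.0533) and AT5G59940 (0.151) lost theirs, and without the shallower NV library SULTR3;5 (0.0538) did.

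**Figure D4:**
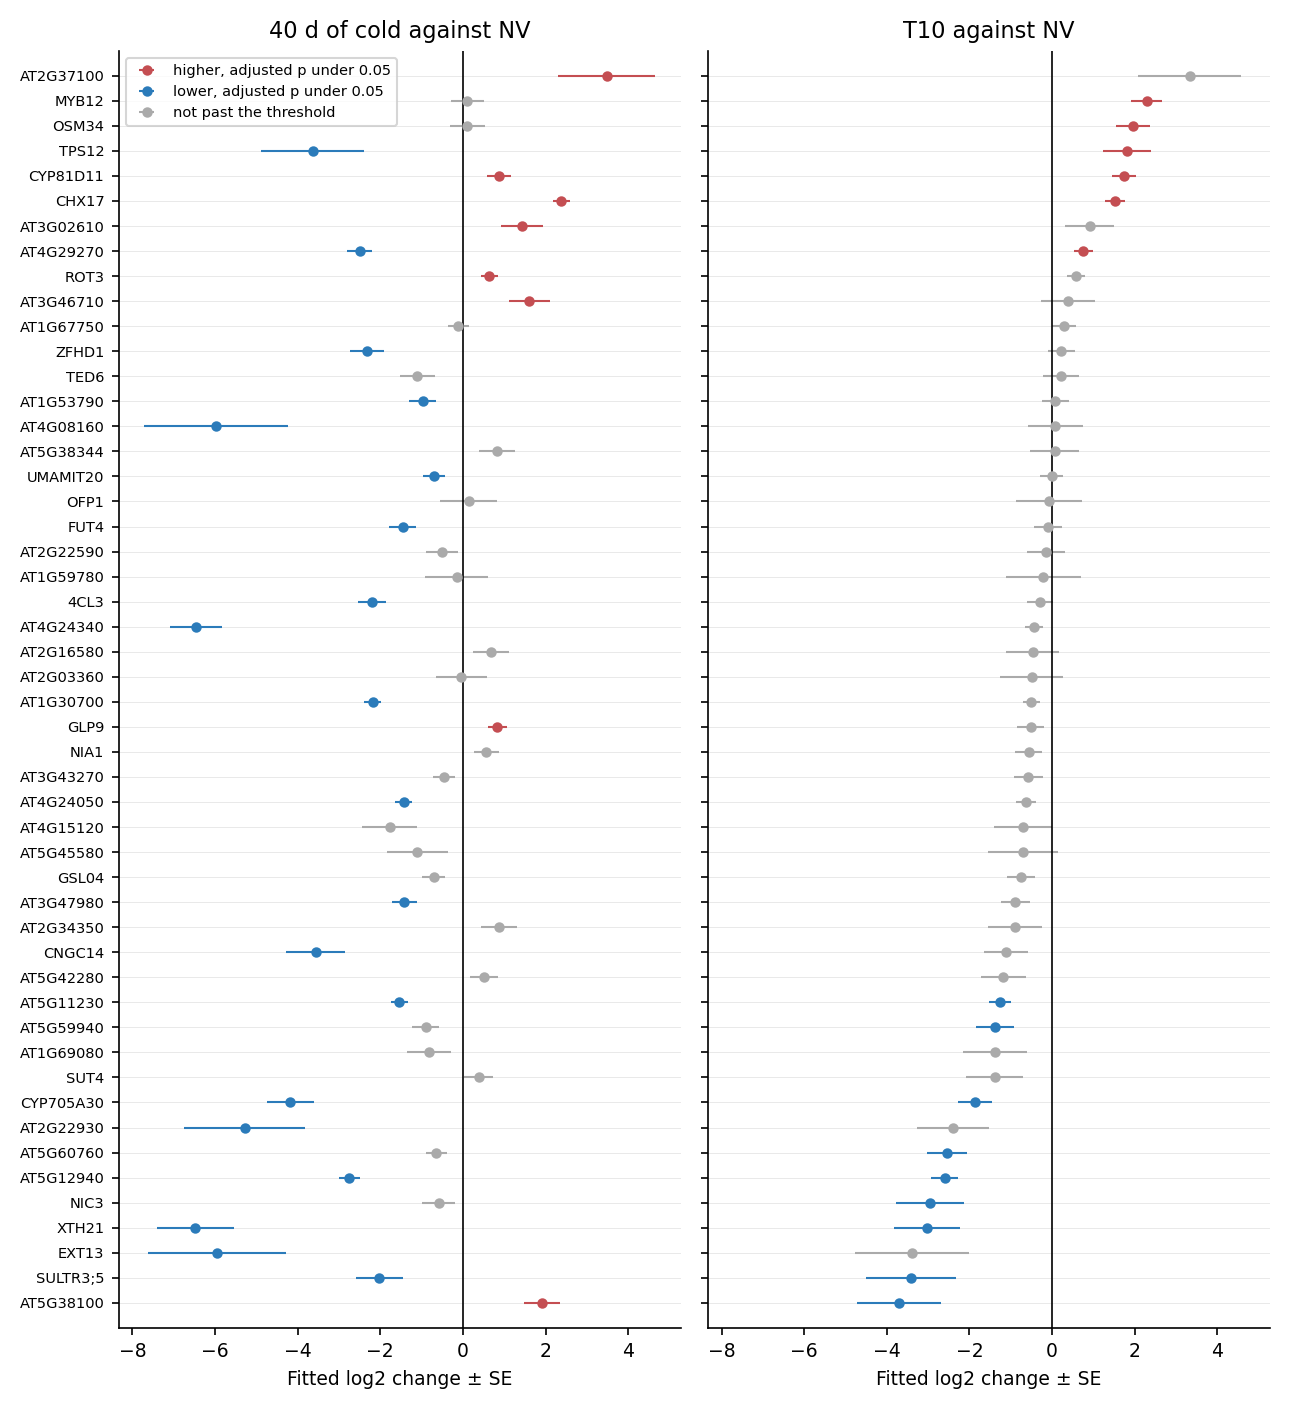
Fitted log2 change of RNA with its standard error (SE) for the 50 tested genes of the gaining regions, at 40 d of cold against NV (left) and T10 against NV (right), in the order of the T10 change; the colour shows the call of the limma fit over all 18766 genes. At 40 d 8 genes were higher and 20 lower than at NV, and at T10 6 were higher and 9 lower; fitted changes of genes with a group at 0 reads depend on the fit and are no measured size.

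More of these genes differed from NV at the end of the cold than after the return, and this was not particular to them. At T10 the shares were 13.7% higher and 10.7% lower among all genes tested. They were 10.2% and 22.0% among the tested genes of regions covered in all 6 libraries. All 4 were below the 40 d shares given next. The T10 group also held the shallowest RNA library (2.38 M reads), and its part in the fewer calls was not tested. At 40 d, 8 of the 50 rose and 20 fell, 16.0% and 40.0%, against 16.5% and 18.3% of all genes tested and 12.3% and 42.1% of the tested genes of regions covered in all 6 libraries. The median log2 change was -0.71, against 0.00 over all genes and -0.9 over the genes of the regions covered in all 6 libraries. The share of falls was thus above that of all genes and near that of the genes of regions covered in all 6 libraries. These 2 gene sets differ in how much of a gene lies in its region. Of the linked genes, tested or not, 19.9% lay to less than 50% in a gaining region, against 3.81% for regions covered in all 6 libraries. The part of this was not tested. Of the root list 5 of 10 tested genes were lower at 40 d as well, with a summed level of 22.9 at 40 d against 52.6 at NV; their part was not tested. When any 1 library was left out 13 of the 20 falls and 2 of the 8 rises kept their calls. The number of rises was 5 without the deeper 40 d library, 2 without the shallower one and 2 without the deeper NV library.

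Between T10 and 40 d, which shares its 40 d libraries with the comparison above, 15 of the 50 genes rose and 6 fell, 30% and 12.0%, against 13.3% and 10.1% of all genes and 21.2% and 10.6% of the tested genes of regions covered in all 6 libraries. Of these, 5 rises and no fall kept their calls when any 1 library was left out. The rises numbered 8 without the shallower T10 library and 7 without either 40 d library, and the falls none without the deeper T10 library and 3 without the shallower 40 d library. AT4G24340 showed the widest course among genes with reads in every library. It stood at 9.55 and 8.05 normalised read counts at NV, 0.0582 and 0.146 at 40 d, and 6.32 and 7.11 at T10. The log2 change was -6.46 at 40 d against NV (SE 0.64, adjusted p 2.16e-05) and 6.02 at T10 against 40 d (SE 0.65, adjusted p 4.73e-05), and both calls remained when any 1 library was left out. T10 against NV did not pass the test (-0.44, SE 0.22, adjusted p 0.168).

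The region of AT4G24340, chr4:12607050-12609601 (2552 bp), covers the whole gene. H3K4me3 covered 10.6% and 8.3% of the region at NV, 0% in both libraries at 40 d, and 10.7% and 8.9% at T10. H3K27me3 covered 26.2% and 45.8% at NV, 100% and 36% at 40 d, and 69.6% and 60.3% at T10, so that at 40 d against NV it was higher in replicate 1 and lower in replicate 2. At T10 the RNA and H3K4me3 were thus back near their NV values while H3K27me3 met the rule.

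AT4G29270 showed a similar course. It stood at 5.77 and 4.7 at NV, 0.893 and 0.95 at 40 d, and 8.64 and 9.36 at T10, with log2 changes of -2.5 at 40 d against NV (SE 0.31, adjusted p 0.000105) and 3.25 at T10 against 40 d (SE 0.32, adjusted p 2.17e-05). H3K4me3 covered 77.8% and 0% of its region at NV, 0% in both at 40 d, and 73.6% and 70.1% at T10. The flavonoid branch gene 4CL3 (-2.21, SE 0.34, at 40 d against NV) and AT1G30700 (-2.18, SE 0.21) also fell at 40 d and rose by T10 against 40 d (1.92 and 1.68), and neither lost these calls without any 1 library. The zinc finger homeodomain gene ZFHD1, with 3.07 and 3.44 at NV, 0.873 and 0.438 at 40 d, and 4.21 and 2.25 at T10, kept its fall at 40 d, but its rise at T10 against 40 d (2.54, SE 0.45, adjusted p 0.0016) was lost without the deeper T10 library (0.168).

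Other genes were near or at 0 in the cold. XTH21 had no read in either 40 d library, at least 29.9-fold lower than at NV against a floor of 3 reads over the group, a call kept without any 1 library. EXT13 had none either, at least 20.6-fold lower than at NV (adjusted p 0.0162, lost without the deeper 40 d library at 0.105 or the shallower at 0.0883). AT4G08160 had 2 reads over both 40 d libraries, a ratio of 0.014 to NV (95% exact interval of the read counts 0.00167 to 0.0516), and its call (adjusted p 0.0192) was lost without the deeper (0.0645) or the shallower 40 d library (0.11). CNGC14, a cation channel gene known from root growth, stood at 0.349 and 0.365 at 40 d, against 3.22 and 6.02 at NV (-3.56, SE 0.71, adjusted p 0.00262). CYP705A30 stood at 0.116 and 0.268 at 40 d, against 3.17 and 3.44 at NV (-4.18, SE 0.57, adjusted p 0.000224). All of these were lower in both 40 d libraries than in both NV libraries. The groups did not overlap in any of the 28 genes called at 40 d, so this adds nothing to the calls.

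Of the 8 genes that rose at 40 d, CHX17 (2.38, SE 0.21, adjusted p 1.08e-05) and AT5G38100 (1.92, SE 0.44, adjusted p 0.00557) kept the call when any 1 library was left out. CHX17 stood at 20.1 and 26.2 at 40 d, against 4.89 and 3.88 at NV. AT5G38100 stood at 1.65 and 2.02 at 40 d, against 0.52 and 0.411 at NV. With no read at T10 it was at least 22.7-fold lower there than at 40 d (adjusted p 0.00132, and 0.0871 without the deeper T10 library). The other 6, among them CYP81D11, the germin-like gene GLP9 and ROT3, lost the call without the shallower 40 d library (0.0751 to 0.207) and without the deeper NV library (0.0704 to 0.598). Of them 3 also lost it without the deeper 40 d library (0.0593 to 0.0888) and 3 without the shallower NV library (0.0532 to 0.0929).

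**Figure D5:**
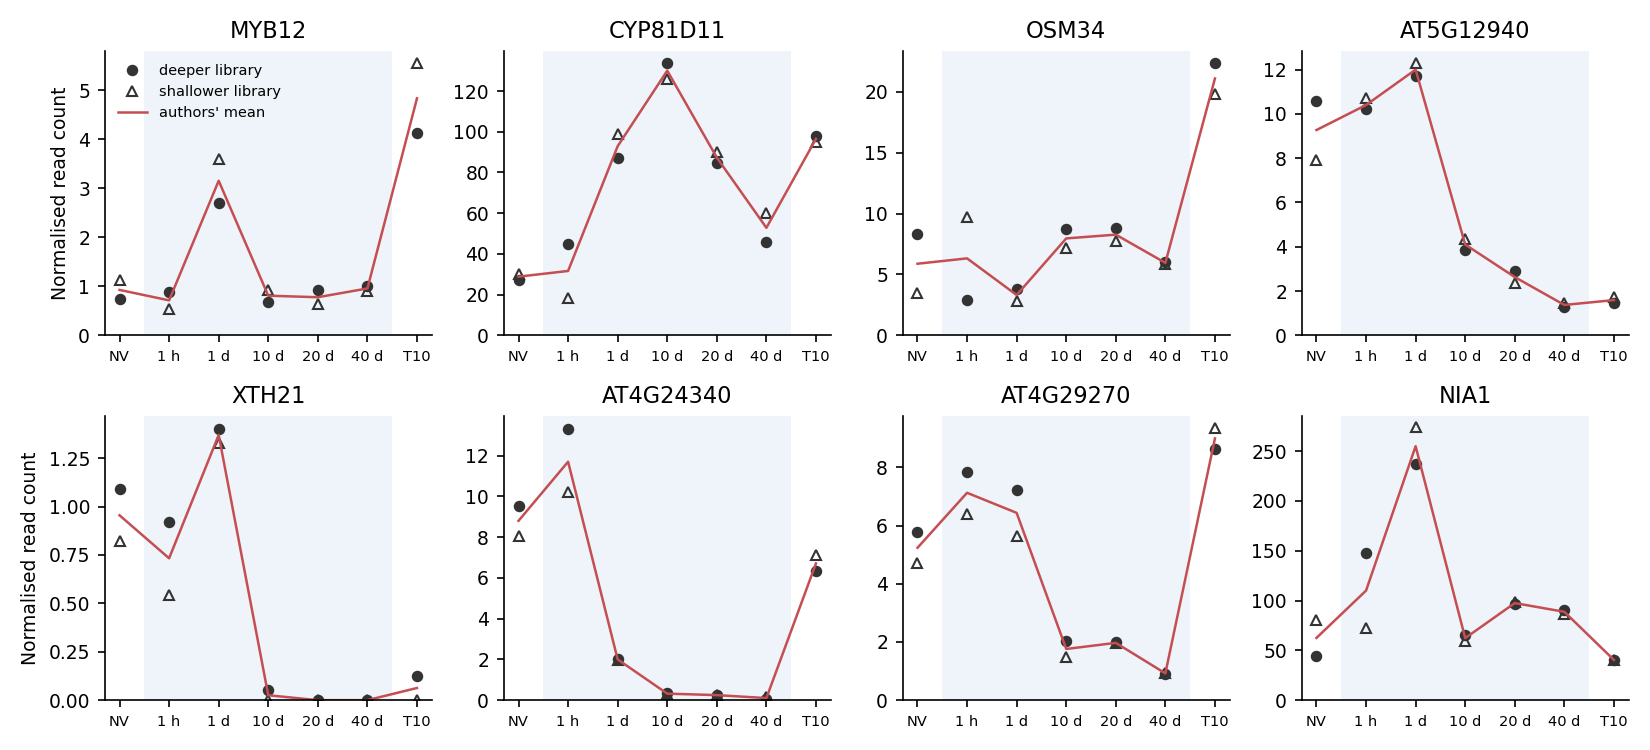
Normalised read counts of 8 genes of the gaining regions at NV, after cold of 1 h and of 1, 10, 20 and 40 d (shaded), and at T10; points are the 2 libraries of a group and the line is the authors' mean. MYB12 was near 1 from 10 d to 40 d and at 4.83 at T10, AT5G12940 was at 9.27 at NV, 1.37 at 40 d and 1.59 at T10, and AT4G24340 at 8.8 at NV, 0.102 at 40 d and 6.71 at T10.

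The time course placed these changes. AT5G12940 averaged 9.27 at NV, 10.4 at 1 h, 12.0 at 1 d, 4.1 at 10 d, 2.63 at 20 d, 1.37 at 40 d and 1.59 at T10, so its level was low for the last part of the cold and after it. Its region had no H3K27me3 peak at NV or at 40 d and was covered to 87.6% and 70.3% at T10. MYB12 averaged 0.925 at NV, 3.15 at 1 d, 0.807 at 10 d, 0.955 at 40 d and 4.83 at T10, high at 1 d and after the return. CYP81D11 averaged 28.8 at NV, 92.9 at 1 d, 130.0 at 10 d, 52.8 at 40 d and 96.5 at T10. XTH21 averaged 0.955 at NV and 1.37 at 1 d, and was at or below 0.0629 from 10 d on, T10 included.

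Split by their coverage at 40 d, the 14 tested genes of regions covered in both 40 d libraries held 2 rises and 1 fall at T10 against NV. The 29 of regions covered in 1 library held 3 rises and 6 falls, and the 7 of regions covered in neither held 1 rise and 2 falls. At 40 d against NV the same sets held 2 rises and 5 falls, 5 rises and 14 falls, and 1 rise and 1 fall. The sets are small, and differences between them were not tested.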

How the data were processed

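ChIP-seq peak lists of 18 libraries (3 marks, 3 groups, 2 replicates) and 1 RNA table of 7 groups were used. Per the file headers, MACS 2.1.1.20160309 was run by the authors on each library against the input of its group, with tags extended to 600 bp, a q-value limit of 5.00e-02 and an effective genome of 1.00e+08 bp; 1 input library per group served both replicates. The deposited lists give positions in bp, the pileup signal, a fold enrichment (ratio) and, on the −log10 scale, each peak's q-value and p-value. Bowtie2, TopHat, edgeR, MACS2 and the build TAIR10 are named in the submitters' processing notes. The RNA table holds, per the labels, normalised counts averaged over 2 replicates, a signal made by the authors and not divided by gene length; the libraries were stranded and depleted of ribosomal RNA.

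Peaks of the 6 H3K27me3 libraries were merged and the covered share of each region computed. Genes came from the RefSeq table of TAIR10.1, used for names and links only. Of the 18779 listed genes, 18599 matched a nuclear gene of it by identifier and 157 were organelle identifiers. In 41 windows of 3 Mb, the frames of H3K36me3 peaks and genes fitted best at shifts of -100 to 100 bp (median 0).

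Each deposited RNA mean is a sum of whole multiples of 2 steps, 1 per averaged library. At a relative tolerance of 1e-12, 99.95% to 99.98% of the values of a group had 1 solution, which gave reads for 14 libraries; 13 genes were left out. The table has no replicate numbers, so libraries are called deeper and shallower. limma 3.58.1 with voom in R 4.3.3 was fitted to all 14 libraries for 18766 genes with Benjamini-Hochberg adjustment, and a gene rose or fell at an adjusted p under 0.05. The planned TMM scaling was replaced by the authors' own scaling, which the steps carry. Intervals and floors (3 reads) cover counting error only, as reads carry no molecular identifiers.

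The rule for naming was the 10 longest regions, the genes with the largest called changes at T10 against NV (up to 10 each way), the 5 longest regions covered in both and in neither 40 d library, regions with changed active marks and regions next to the limit; the names of families and the genes given for 40 d were chosen after their values were seen. The members and the gene lists were chosen with earlier results of these data known. Alternatives changed the peak and coverage limits, the joining of peaks, the gene link, the scaling, the filter and the libraries. No sequences are printed and promoter motifs were not analysed here, as no genome or promoter table was used. Python 3.11.15 with pandas 2.3.3, numpy 2.4.6 and scipy 1.17.1 did the rest.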

Additional observations from a re-analysis of the deposited data

How the results depend on the processing

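Changing the peak limit to a −log10 q of at least 5, the coverage limit to 30% or 70%, or joining peaks within 500 bp gave 174 to 257 gaining regions and 9 to 15 by the reverse rule, with 48 to 73 of the gaining regions covered in both 40 d libraries. Using 1 replicate alone moved these counts to 928 to 2382 gaining regions, 215 to 338 by the reverse rule and 488 to 1980 covered at 40 d, because fewer libraries must meet the rule. T10 replicate 2 against NV replicate 1, a comparison chosen after seeing the data, gave 469 and 1933; the cause was not tested.

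When at least 50% of a region had to be covered, H3K4me3 was in 22 regions at NV, 21 at 40 d and 26 at T10, and H3K36me3 in 5 at T10, with 1 loss of H3K4me3 at 40 d against NV and 2 gains at T10 against 40 d, as the limit is stricter. With 1 replicate alone, gains of H3K4me3 were 5 to 8 (T10 against NV), 1 to 4 (40 d against NV) and 8 to 12 (T10 against 40 d), and losses 2 to 3, 4 to 10 and 1 to 2. Gains of H3K36me3 were then 1 to 2, 0 to 1 and 1 to 2, with 0 to 1 losses at 40 d against NV.

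For RNA, median-of-ratios scaling and a filter of 10 reads in 2 libraries kept every count within 1.5 times. With only genes covered to at least 50%, which is a smaller set, 3 genes rose at T10 against NV, 5 rose and 13 fell at 40 d against NV, and 8 rose and 2 fell at T10 against 40 d. A rule of size alone (2-fold with a pseudocount of 1) called 5 falls at T10 against NV and 1 rise at 40 d against NV, and with a pseudocount of 0.25 called 4 rises at 40 d against NV; the cause was not tested. With 1 library left out in turn, rises numbered 2 to 6 and falls 0 to 12 at T10 against NV, rises 2 to 7 and falls 14 to 21 at 40 d against NV, and rises 7 to 10 and falls 0 to 5 at T10 against 40 d. Over all alternatives the changes of single called genes kept sign and call in 369 cases and kept the sign but lost the call in 143. The planned quasi-likelihood test was not run, so the calls on the reads split from the deposited means rest on limma alone.

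No paired analysis was possible because the RNA table holds means with no replicate numbers and the ChIP-seq results come from no test. Depth limits the peak comparisons: the shallowest H3K27me3 libraries held 3.42 and 3.86 M tags, and a region without a peak there may carry a mark that was not detectable at this depth.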
